A study of Mus musculus with 37 samples.

Results

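The 7 genes Slc6a5, Slc6a9, Slc32a1, Glra1, Glrb, Gad1 and Gad2 of inhibitory transmission by glycine and GABA were followed through 8 RNA libraries of mouse cerebellum. They were taken by symbol, and all 7 were found among the 29955 symbols of the deposited expression table. The glycine genes are Slc6a5, Slc6a9, Glra1 and Glrb, the GABA synthesis genes are Gad1 and Gad2, and Slc32a1 serves both transmitters. The study deleted Mll4, a methyltransferase of lysine 4 of histone H3, in the brain. The groups used here were WT, which is Mll4f/f without the deletion, and KO, which is Mll4 BSKO, a brain-specific knockout, all on C57BL/6. There were 3 WT and 3 KO libraries from mice of 1 month and 1 library of each genotype from mice of 4 months. The driver of the deletion is not given in the sources used here. The labels leave unsaid whether each library had its own animal, so a p-value reflects the scatter of these libraries alone, possibly technical.

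Fast inhibition in the brain runs on GABA and glycine. Gad1 and Gad2 encode the enzymes that make GABA from glutamate, and Slc32a1 encodes the transporter that loads either transmitter into synaptic vesicles. Slc6a5 encodes GlyT2, which returns glycine to the terminals of glycinergic neurons, and Slc6a9 encodes GlyT1, which clears glycine mainly into glia. Glra1 encodes the adult alpha subunit of the glycine receptor and Glrb the beta subunit, which anchors the receptor to gephyrin. Glycinergic neurons are densest in the brainstem and spinal cord. In the cerebellum, glycine is used by Golgi cells and by some neurons of the deep nuclei, while Purkinje cells, basket cells and stellate cells use GABA.

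The stretch before the transcription start is shown for 3 members that had unlike patterns across the libraries, Slc6a5, Gad1 and Gad2. RefSeq promoters in build GRCm38.p6 were found for 6 of the 7 members, Glra1 being the one without an entry. Each line gives the 250 bases before the start in the direction of transcription, with motif matches in capitals. All 3 genes lie on the plus strand. The Slc6a5 stretch is chr7:49910049-49910298, that of Gad1 is chr2:70561879-70562128 and that of Gad2 is chr2:22622077-22622326. Slc6a5 has 2 starts in RefSeq, and the stretch of the first is shown.
Slc6a5: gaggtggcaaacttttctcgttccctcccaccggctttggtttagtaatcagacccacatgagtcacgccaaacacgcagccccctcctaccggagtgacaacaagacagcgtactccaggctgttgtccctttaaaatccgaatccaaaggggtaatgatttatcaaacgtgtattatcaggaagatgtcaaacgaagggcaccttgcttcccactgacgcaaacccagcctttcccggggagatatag
Gad1: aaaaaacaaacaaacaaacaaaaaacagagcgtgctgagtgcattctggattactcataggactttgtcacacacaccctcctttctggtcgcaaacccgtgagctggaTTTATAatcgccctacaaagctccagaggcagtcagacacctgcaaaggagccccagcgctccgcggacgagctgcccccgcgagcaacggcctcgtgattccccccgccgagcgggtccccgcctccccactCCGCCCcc
Gad2: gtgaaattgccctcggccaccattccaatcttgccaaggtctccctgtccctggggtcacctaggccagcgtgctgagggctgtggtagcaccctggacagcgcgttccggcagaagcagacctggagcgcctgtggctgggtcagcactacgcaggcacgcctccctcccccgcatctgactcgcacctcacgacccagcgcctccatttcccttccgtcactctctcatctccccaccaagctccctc
The motifs searched, on both strands, were a TATA box (TATAAA), an E-box (CAGCTG) and a GC box (GGGCGG). The Gad1 stretch held a TATA box on the opposite strand, read there as TTTATA, 141 bases before the start. It also held a GC box on the opposite strand, read as CCGCCC, 8 bases before the start. The Slc6a5 stretch held 11 CpG and 50.4% G and C, the Gad1 stretch 17 CpG and 58.0%, and the Gad2 stretch 13 CpG and 64.0%. The stretch before the other Slc6a5 start, not printed, held 7 CpG and 43.6% G and C. Neither Slc6a5 nor Gad2 held a match to these letters in this window. Of 32851 promoters of the same length, 12.4% held the TATA box, 13.0% the E-box and 32.7% the GC box, with a median of 6 CpG and 52.4% G and C. A match describes letters only.

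Some libraries stood apart, and 2 had some values at odds with their labels. Median absolute log2 differences, over 7315 genes of at least 10 FPKM on average, were 0.08 between replicates 1 and 2 of either genotype. FPKM is the number of fragments of a gene, scaled to its transcript length and to all mapped fragments of the library. The library labelled KO replicate 3 was 0.25 from each of the other KO libraries and only 0.16 and 0.15 from WT replicates 1 and 2. The targeted gene is listed as Mll2, read here as Kmt2d. Its level was 18.2, 19.9 and 22.3 FPKM in WT libraries and 12.7, 13.6 and 23.5 in KO at 1 month, so the library labelled KO replicate 3 was the highest of the 6. Slc6a5 and Glra1, at 41.6 and 55.9 FPKM in that library, were still above every WT library of 1 month. WT replicate 3 was 0.19 and 0.18 from the other WT libraries. The library labelled 4-month KO held genes of the forebrain. Tbr1, a factor of cortical neurons, was at 31.2 FPKM there against at most 0.537 in any other library, and Dlx1 of forebrain interneurons at 12.2 against at most 0.173. Gabra6 of cerebellar granule neurons was at 0.118 there and 134 in 4-month WT. The 1-month differences of the members are given both with and without that library of KO replicate 3. Absolute depth is unknown for FPKM values, and depth relative to WT replicate 1 was estimated at 0.73 to 1.2.

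In 1-month WT cerebellum the GABA enzyme Gad1 had the highest mean level of the members and the glycine carrier Slc6a5 the lowest, although Slc6a5 exceeded Gad2 and Slc32a1 in WT replicate 3. On the FPKM scale, which is per transcript length, mean levels were 113 ± 23.7 for Gad1 and 88.8 ± 5.44 for Glrb (SD, n = 3). The ranges of these neighbours overlapped, although Gad1 was above Glrb within each 1-month WT library. Slc6a9 followed at 38.6 ± 2.42, above every library of the members below it. Slc32a1 at 28.6 ± 4.88 and Gad2 at 27.7 ± 3.41 did not differ beyond their spread. Glra1 at 20.4 ± 10.6 and Slc6a5 at 17.2 ± 8.33 did not either, although Glra1 was above Slc6a5 within each 1-month WT library. In KO replicates 1 and 2 the order was another. Glrb led, Glra1, Slc6a5 and Slc6a9 came next, and Gad1 was only the fifth of the 7. In the library labelled KO replicate 3 Gad1 was the second, below Glrb alone.

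**Figure D1:**
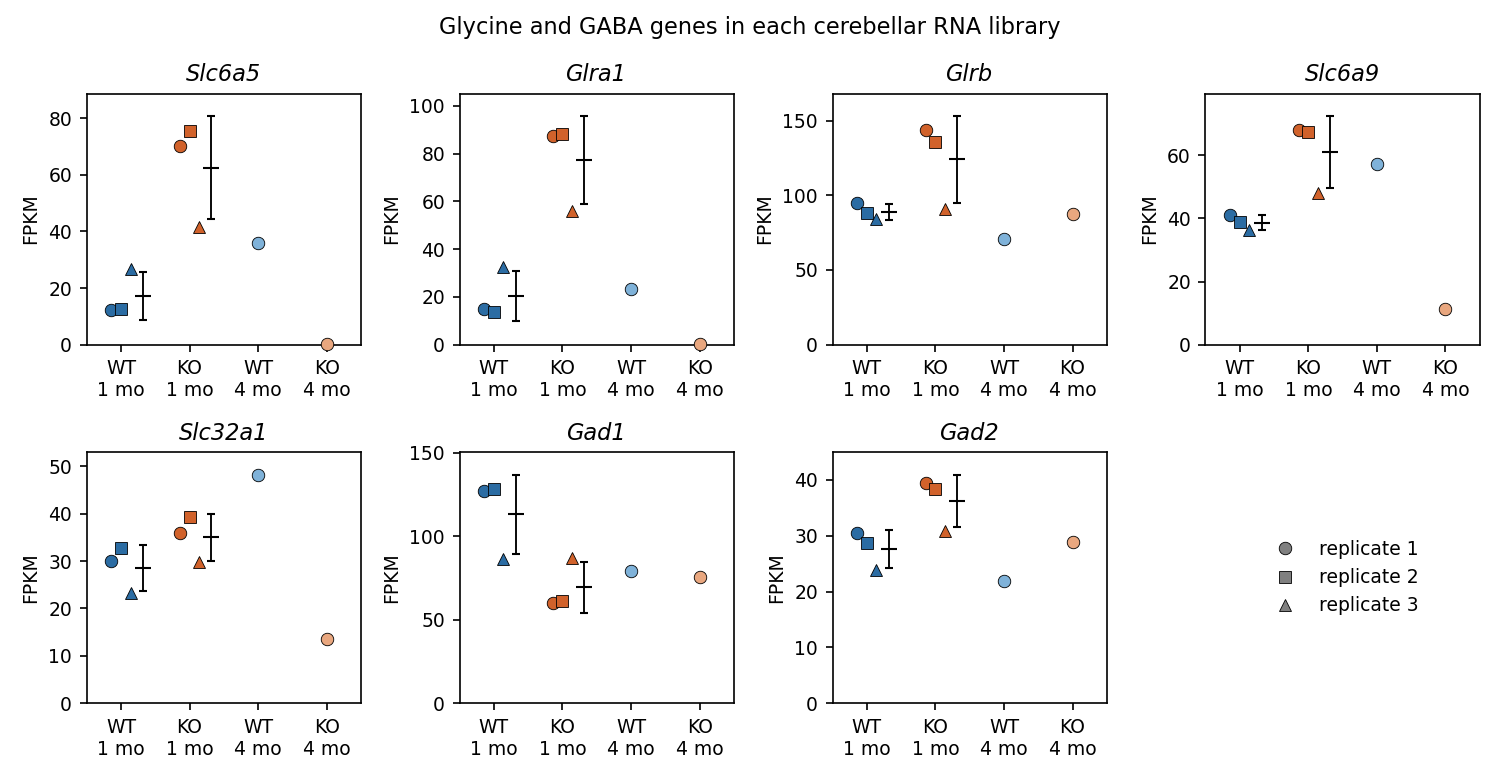
FPKM of each member in every library (vertical axis from 0), by genotype and age; circles, squares and triangles are replicates 1, 2 and 3, and bars show mean ± SD of the 3 libraries at 1 month. Slc6a5 and Glra1 were higher in each KO library than in any WT library at 1 month, and stood at 0.0797 and 0.431 FPKM in the library labelled 4-month KO.

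At 1 month the question was whether deletion of Mll4 shifted these genes. The glycinergic genes were higher in the KO libraries, most of all Slc6a5 and Glra1 at 3.63 and 3.79 times the WT mean. Gad1 was lower, with a WT mean 1.63 times the KO mean, and Gad2 was higher by 1.31 times. With all 6 libraries 0 of the 7 passed an adjusted p of 0.05 in limma, where 0.0269% of the 14847 genes tested did. An unadjusted p under 0.05 was found for 5 of the 7, and for 31.2% of all genes tested. Without the library labelled KO replicate 3, 6 of the 7 passed, 5 higher and 1 lower, where 34.1% of 14765 genes passed. That library was singled out after its likeness to WT was seen, and leaving it out made all 7 differences larger in size. The p-values without it, here and below, are therefore descriptive. With KO replicate 1 or 2 left out instead, 0 of the 7 passed, where 2 and 4 of all genes tested did. In a piece of tissue, fewer or more cells of a type and less or more RNA per cell cannot be told apart. Tests were made with limma on log2(FPKM + 1), with Benjamini-Hochberg adjustment over all genes tested.

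Among the carriers, Slc6a5 was at 12.2, 12.6 and 26.8 FPKM in WT libraries and at 70.2, 75.4 and 41.6 in KO. The groups did not overlap, and replicate 3 of each genotype lay toward the other genotype. The KO minus WT difference was 1.85 on the log2(FPKM + 1) scale (SE 0.35, limma adjusted p = 0.0648). Without the library labelled KO replicate 3, Slc6a5 rose by 2.11 (SE 0.35, limma adjusted p = 0.0101). WT replicate 3 held 2.17 times the mean of the other WT libraries.

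Slc6a9, the mainly glial carrier, was at 41.0, 38.7 and 36.2 FPKM in WT libraries and 67.9, 67.3 and 48.0 in KO. Here too every KO library exceeded every WT library, while the WT libraries lay close together. Its difference of 0.63 (SE 0.16) was smaller than that of Slc6a5 and had a limma adjusted p of 0.0789. It rose by 0.79 (SE 0.09, limma adjusted p = 0.00414) without the library labelled KO replicate 3. The carriers differ in size of effect as a description only, since the difference between genes was not tested.

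Glra1, the receptor's ligand-binding alpha subunit, was at 15.0, 13.5 and 32.6 FPKM in WT libraries and 87.3, 88.4 and 55.9 in KO. Its libraries fell in the same order of groups as those of Slc6a5, with WT replicate 3 at 2.29 times the mean of the other WT libraries. The difference was 1.95 (SE 0.35, limma adjusted p = 0.064). Glra1 rose by 2.16 (SE 0.37, limma adjusted p = 0.0115) without the library labelled KO replicate 3.

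Glrb, the anchoring beta subunit, was far more even. It stood at 94.6, 87.9 and 83.9 FPKM in WT libraries and 144, 136 and 90.6 in KO. The library labelled KO replicate 3 fell inside the WT range. The difference was 0.45 (SE 0.19, limma adjusted p = 0.164) over all libraries, and Glrb rose by 0.65 (SE 0.10, limma adjusted p = 0.00773) without it. Glrb exceeded Glra1 in each of the 8 libraries.

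Slc32a1, the vesicular transporter of both transmitters, was at 30.0, 32.7 and 23.2 FPKM in WT libraries and 36.0, 39.4 and 29.7 in KO. The groups overlapped. The difference of 0.29 (SE 0.17) had a limma adjusted p of 0.283, and 0.40 (SE 0.16) without the library labelled KO replicate 3 had one of 0.115. It was the 1 member that passed in neither fit.

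Gad1 was the 1 member lower in KO. It was at 127, 128 and 86.1 FPKM in WT libraries and at 60.0, 61.2 and 87.1 in KO. Replicate 3 of WT and of KO lay together, so the groups overlapped there, and the other KO libraries were well below the other WT libraries. The difference was -0.70 (SE 0.22, limma adjusted p = 0.0989). Without the library labelled KO replicate 3, Gad1 fell by 0.87 (SE 0.20, limma adjusted p = 0.0233).

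Gad2, which encodes the GABA enzyme bound to synaptic vesicles, went the other way from Gad1. It was at 30.5, 28.7 and 23.9 FPKM in WT libraries and 39.4, 38.4 and 30.8 in KO. The groups did not overlap, but WT replicate 1 and the library labelled KO replicate 3 were nearly level. The difference was 0.37 (SE 0.15, limma adjusted p = 0.145), and Gad2 rose by 0.48 (SE 0.13, limma adjusted p = 0.0372) without that library.

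Over the 7 members the median difference was 0.45, against -0.04 over all genes tested. In 4 of the 7, Slc6a5, Slc6a9, Glra1 and Gad2, every KO library lay above every WT library, where 15.2% of all genes tested did so. Each of these 4 and Gad1 had an unadjusted p under 0.05, as did 31.2% of all genes.

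**Figure D2:**
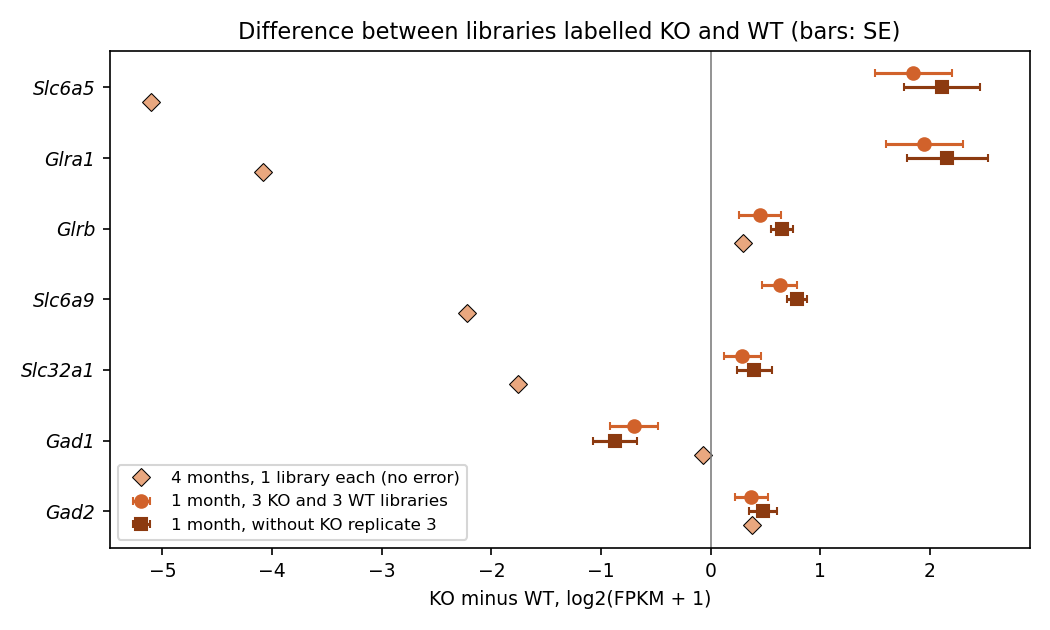
KO minus WT difference in log2(FPKM + 1) of each member (horizontal axis) at 1 month with all 6 libraries (circles), at 1 month without the library labelled KO replicate 3 (squares), both ± SE, and at 4 months with 1 library each (diamonds). Slc6a5 lies at 1.85 and 2.11 at 1 month and at -5.10 at 4 months, while Gad1 lies at -0.70, -0.87 and -0.07.

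Ratios taken within a library leave out any scaling between libraries. They are given without a test. The ratio of Slc6a5 to Gad1 was 0.096, 0.0985 and 0.311 in WT and 1.17, 1.23 and 0.478 in KO. In KO replicates 1 and 2 the glycine carrier thus exceeded the GABA enzyme, which it did in no WT library. On the log2 scale the ratio averaged -2.80 ± 0.97 in WT and -0.18 ± 0.77 in KO (SD, n = 3). The ratio of Gad1 to Gad2 was 4.15, 4.44 and 3.60 in WT and 1.52, 1.59 and 2.83 in KO, so the enzymes were closer to each other in each KO library. Slc6a5 to Slc32a1 was 0.406, 0.384 and 1.15 in WT and 1.95, 1.91 and 1.40 in KO, without overlap.

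**Figure D3:**
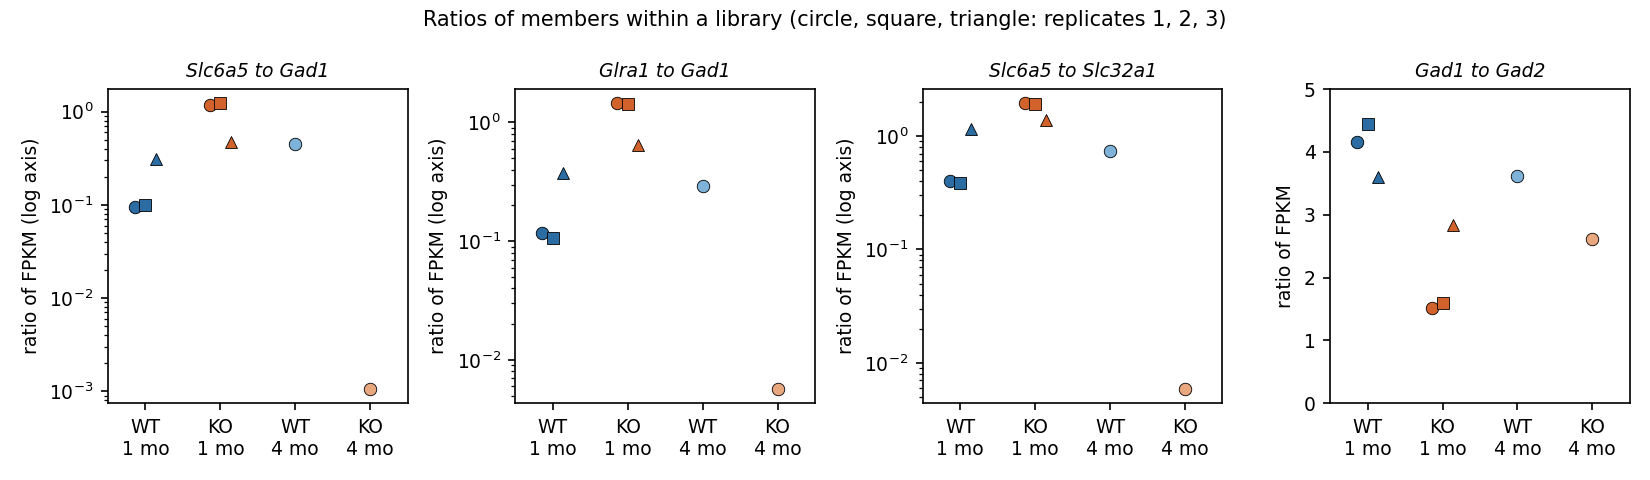
Ratio of FPKM of 2 members within each library, on log axes except for Gad1 to Gad2; circles, squares and triangles are replicates 1, 2 and 3. The ratio of Slc6a5 to Gad1 was at most 0.311 in 1-month WT, at least 0.478 in 1-month KO, and 0.00106 in the library labelled 4-month KO.

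Markers of brainstem neurons were higher in KO, as Slc6a5 and Glra1 were. The list of 21 cholinergic, monoaminergic and Hox genes held 17 that were tested, and all 17 had a positive KO minus WT difference at 1 month (median 1.67, and 2.07 without the library labelled KO replicate 3). In 16 every KO library was above every WT library, where 15.2% of all genes were. The summed level of the 21 genes was 8.63, 9.2 and 41.9 FPKM in WT libraries and 133, 128 and 80.2 in KO, with replicate 3 of each genotype toward the other genotype, as in Slc6a5 and Glra1. In Slc6a9 and Glrb WT replicate 3 was instead the lowest WT library. Of the 21 genes, 1, 2 and 1 were at 0 in the WT libraries and 0 in each KO library. The 8 Hox genes among them, which mark hindbrain caudal to the cerebellum, summed to 2.12, 2.67 and 16.1 FPKM in WT libraries and 42.2, 38.2 and 29.0 in KO. The part of these markers in the difference of Slc6a5, Glra1 and Slc6a9 was not tested.

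Markers of Purkinje cells and granule neurons were lower in KO, as Gad1 was. All 13 Purkinje cell markers tested were lower in every KO library than in any WT library, where 20.5% of all genes were (median -1.72, and -2.23 without the library labelled KO replicate 3), and their summed level ran from 2474 to 2963 FPKM in WT libraries and from 642 to 1707 in KO. All 13 granule neuron markers did the same (median -1.81, and -2.43 without it), with sums of 1839 to 1900 and 360 to 1242. Neither list had a gene at 0 in any library. The library labelled KO replicate 3 was the highest KO library for both lists, as it was for Gad1. The 14 markers of cerebellar interneurons summed to 549 to 627 FPKM in WT libraries and 342 to 506 in KO, with Pvalb the largest gene of each sum. The 13 tested had differences in both directions, with a median of 0.14. Of these, 5 were higher and 2 lower in every KO library, where 15.2% and 20.5% of all genes were. Lgi2 was at 29.7 ± 4.13 FPKM in WT libraries and 51.7 ± 6.83 in KO, while Pvalb, the calcium buffer parvalbumin, was at 387 ± 51.3 and 216 ± 77.1 (SD, n = 3). Their limma adjusted p of 0.0648 and 0.0875 became 0.0083 and 0.0041 when the library labelled KO replicate 3 was left out. The part of these markers in the difference of Gad1 was not tested. Oligodendrocyte markers, 12 genes, summed to 3324, 3224 and 6288 FPKM in WT libraries and 7383, 6929 and 4351 in KO. WT replicate 3 was again nearer to KO replicates 1 and 2. The library labelled KO replicate 3 fell inside the WT range, so the groups overlapped. All 12 had a positive difference (median 0.65). Of these, 3 were higher and 0 lower in every KO library, where 15.2% and 20.5% of all genes were.

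**Figure D4:**
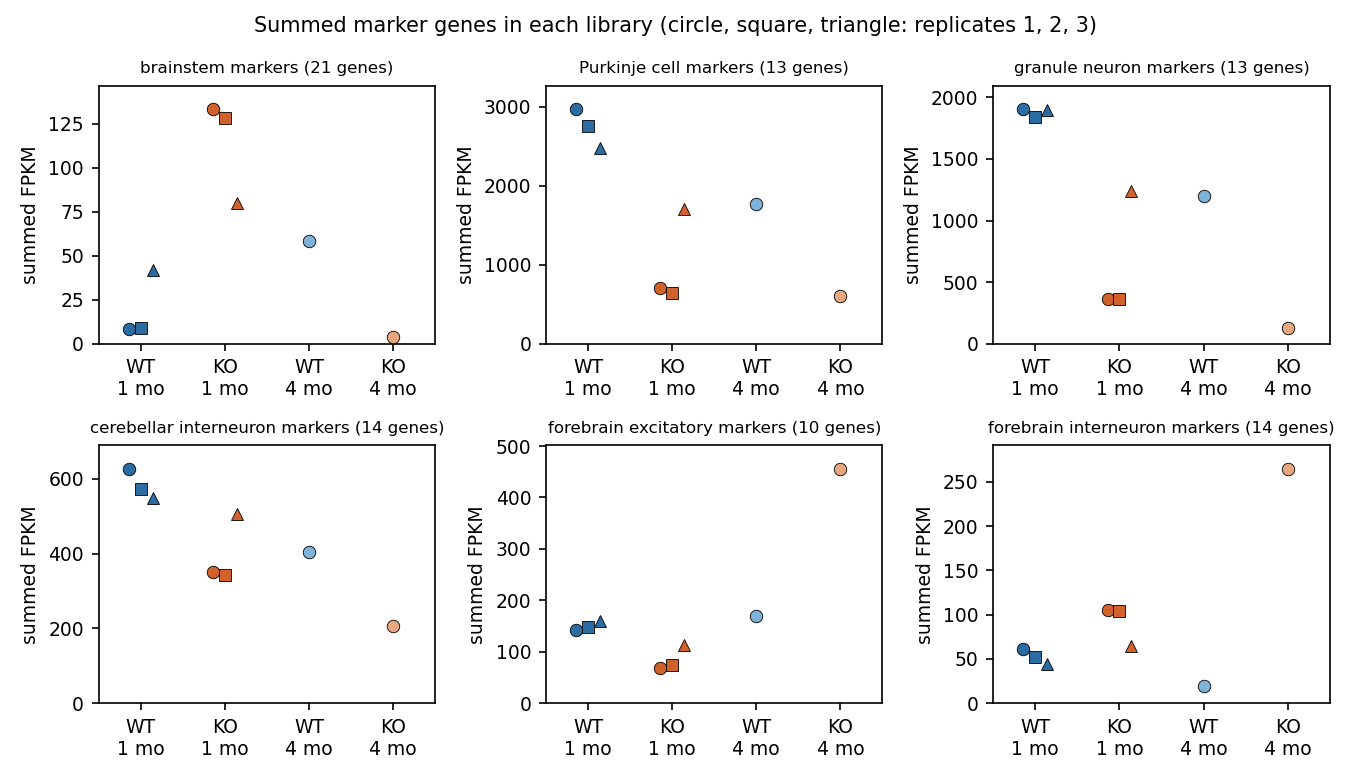
Summed FPKM of 6 marker lists in each library (vertical axes from 0); circles, squares and triangles are replicates 1, 2 and 3. The brainstem sum was at most 41.9 in 1-month WT and at least 80.2 in 1-month KO, and the Purkinje and granule sums were lower in each 1-month KO library than in each 1-month WT library.

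At 4 months there was 1 library of each genotype, so the difference has no replicate check and no p. Of the 7 members, 4 were lower in the library labelled 4-month KO by at least 1 on the log2 scale, Slc6a5, Glra1, Slc6a9 and Slc32a1, where 11.2% of 14791 genes were as much lower. The single WT library had Slc6a5 at 35.9 FPKM, against 0.0797 in the one labelled KO. Glra1 was at 23.2 and 0.431, Slc6a9 at 57.1 and 11.4, and Slc32a1 at 48.2 and 13.5. The GABA enzymes were near each other in the libraries, Gad1 at 79.4 and 75.5 FPKM and Gad2 at 21.9 and 28.9, and so was Glrb at 70.9 and 87.6. The differences in log2(FPKM + 1) were -5.10 for Slc6a5, -4.08 for Glra1, -2.22 for Slc6a9 and -1.76 for Slc32a1, and -0.07 for Gad1, 0.38 for Gad2 and 0.30 for Glrb.

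The library labelled 4-month KO also differed in its tissue markers. Its brainstem sum was 3.96 FPKM against 58.1 in 4-month WT, with 12 of the 21 genes and 8 of the 8 Hox genes at 0. Its sum of 10 forebrain excitatory markers was 456 against 170, and that of 14 forebrain interneuron markers 265 against 19.0. Its Purkinje and granule sums were 605 and 129 against 1764 and 1198. In this pair of the same age, genotype and the tissue held in the library labelled 4-month KO cannot be told apart.

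A test of whether the KO minus WT difference was unlike at the ages used all 8 libraries, and assumes that each lone 4-month library varies as the 1-month libraries do. Of the 7 members, 4 passed, all with a lower difference at 4 months, where 5.42% of 14918 genes passed in that direction. The difference of differences was -6.94 for Slc6a5 (SE 0.71, limma adjusted p = 0.00515) and -6.03 for Glra1 (SE 0.70, limma adjusted p = 0.00672). It was -2.85 for Slc6a9 (SE 0.32, limma adjusted p = 0.00613) and -2.05 for Slc32a1 (SE 0.34, limma adjusted p = 0.0182). Glrb, Gad1 and Gad2 did not pass, with limma adjusted p of 0.83, 0.369 and 0.982. All 4 results rest on the library labelled 4-month KO, whose tissue is in doubt, and no such test exists without it. These p-values therefore do not show a difference between ages.

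Age itself, with genotype as a term, passed in 0 of the 7 members over 8 libraries, where 1.98% of genes did. At an unadjusted p under 0.05 only Glra1 was past, at -2.73 (SE 1.13, limma adjusted p = 0.191). Without the library labelled 4-month KO, 0 of the 7 passed again, where 10.3% of genes did. Slc6a9 and Slc32a1 then had an unadjusted p under 0.05, with limma adjusted p of 0.149 and 0.0908. The direction then turned in 4 members. Slc6a5 was at 1.11 in place of -2.36, Slc6a9 at 0.55 in place of -0.87, Slc32a1 at 0.75 in place of -0.28 and Glra1 at 0.29 in place of -2.73, all 4 months minus 1 month in log2(FPKM + 1).

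Receptors for glycine beyond Glra1 and Glrb were at low levels. Glra3, another alpha subunit, was at 3.75, 2.90 and 2.11 FPKM in WT libraries and 10.4, 9.50 and 4.17 in KO at 1 month. The groups did not overlap. The difference was 1.14 (SE 0.33, limma adjusted p = 0.0891), and Glra3 rose without the library labelled KO replicate 3 (limma adjusted p = 0.00492). Glra2, the alpha subunit of the immature receptor, was at 4.36 ± 1.69 and 4.45 ± 1.47 FPKM (SD, n = 3). Glra4 had a mean under 1 FPKM and was not tested.

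Subunits of the GABA-A receptor had differences in both directions. Of 19 subunits 14 were tested at 1 month, and 5 were higher and 7 lower in every KO library, where 15.2% and 20.5% of all genes were. Their median difference was -0.21, against -0.04 over all genes. None passed with 6 libraries, and without the library labelled KO replicate 3, 5 rose and 6 fell, where 14.2% and 19.9% of genes did. Gabra5, a subunit of extrasynaptic receptors in forebrain, was at 4.63, 4.10 and 5.13 FPKM in WT libraries and 17.4, 16.4 and 9.29 in KO. The groups did not overlap, and the library labelled KO replicate 3 was the lowest of KO. The difference was 1.41 (SE 0.23, limma adjusted p = 0.064), and 1.68 without that library (limma adjusted p = 0.000982). Gabra6, which granule neurons use, stood at 219, 213 and 217 FPKM in WT libraries and 29.5, 28.5 and 145 in KO, also without overlap. Its difference was -2.09 (SE 0.59, limma adjusted p = 0.0891), and -2.85 without the library labelled KO replicate 3 (limma adjusted p = 0.00024). Gabra3 and Gabrg3 were higher in KO as well, with means of 8.11 and 18.9 FPKM for Gabra3 and 3.16 and 6.68 for Gabrg3. Their limma adjusted p, 0.064 for both, was 0.0012 and 0.00328 without that library.

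Of 6 GABA-B receptor genes, 4 were lower in every KO library and 0 higher (median -0.38), where 20.5% and 15.2% of all genes were. When the library labelled KO replicate 3 was left out, 3 fell and 1 rose, where 19.9% and 14.2% of all genes did. Kctd12, an auxiliary subunit of the receptor, was at 52.7 ± 6.17 FPKM in WT libraries and 22.4 ± 9.93 in KO, and Gabbr2, which couples the receptor to G proteins, at 68.0 ± 1.29 and 47.1 ± 7.69 (SD, n = 3). Their limma adjusted p was 0.0694 and 0.0791, and 0.00165 and 0.00513 without that library.

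Of 6 genes of GABA clearance and breakdown, 3 were higher in every KO library and 0 lower (median 0.21), where 15.2% and 20.5% of all genes were. Slc6a11 encodes GAT-3, a GABA carrier of astrocytes. It was at 39.2, 34.6 and 34.7 FPKM in WT libraries and 82.8, 87.4 and 43.8 in KO. The difference was 0.90 (SE 0.26, limma adjusted p = 0.0937), and Slc6a11 rose without the library labelled KO replicate 3 (limma adjusted p = 0.00164). Abat, the enzyme that degrades GABA, was at 99.9 ± 6.18 and 128 ± 16.2 (SD, n = 3), without overlap. Its limma adjusted p was 0.132, and 0.0187 without that library. The sum of 11 astrocyte and Bergmann glia markers was 2011 to 2039 FPKM in WT libraries and 1963 to 2128 in KO. Single genes of that list went in both directions (median 0.0). Of the 11, 1 was higher and 4 were lower in every KO library, where 15.2% and 20.5% of all genes were.

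Of the inhibitory postsynapse, 8 genes were tested, and 3 were higher and 3 lower in every KO library (median 0.12), where 15.2% and 20.5% of all genes were. Gphn encodes gephyrin, the scaffold to which Glrb binds. It was at 42.1, 40.8 and 39.8 FPKM in WT libraries and 34.3, 33.9 and 35.6 in KO, lower by 0.23 on the log2 scale without overlap, opposite in direction to Glrb. Its limma adjusted p was 0.147, and 0.0677 without the library labelled KO replicate 3. Iqsec3, a gephyrin partner, was at 15.4 ± 0.511 and 25.1 ± 3.65 FPKM (SD, n = 3), with a limma adjusted p of 0.0648, and 0.00611 without that library. Among 6 genes of chloride transport, 1 was higher and 1 lower in every KO library (median -0.03), close to those shares of all genes. Slc12a5 encodes KCC2, which keeps chloride low in neurons so that both receptors inhibit. It was at 108 ± 5.72 and 106 ± 5.31 FPKM, and is named beyond the rule, after its values were seen.

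Glycine supply was measured by 9 genes of its synthesis and cleavage, of which 3 were higher and 2 lower in every KO library (median -0.12), where 15.2% and 20.5% of all genes were. Gldc, which breaks glycine down, was at 8.44, 8.82 and 9.55 FPKM in WT libraries and 2.24, 2.71 and 6.88 in KO. The difference was -1.12 (SE 0.32, limma adjusted p = 0.0914), and Gldc fell without the library labelled KO replicate 3 (limma adjusted p = 0.00115). Psat1, an enzyme of serine synthesis and so of the precursor of glycine, was at 33.6 ± 2.63 and 54.9 ± 10.5 FPKM (SD, n = 3), without overlap. Its limma adjusted p was 0.0766, and 0.00414 without that library.

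Transcription factors of the inhibitory lineages were mostly low, and 5 of the 13 in the table were tested. Pax2, a factor of glycinergic and GABAergic interneuron precursors, was at 1.72, 1.33 and 1.53 FPKM in WT libraries and 3.44, 3.56 and 3.63 in KO. Here the library labelled KO replicate 3 lay with the other KO libraries. The difference was 0.85 (SE 0.10, limma adjusted p = 0.0612), and Pax2 rose without that library (limma adjusted p = 0.00447). Lbx1, a factor of hindbrain and spinal interneurons, was at 0.885 ± 0.666 and 2.92 ± 1.00 FPKM. Lhx5 and Lhx1, factors of Purkinje cells and other inhibitory neurons, were lower in every KO library, at 4.28 ± 0.440 and 2.77 ± 0.645 for Lhx5 and 8.21 ± 1.06 and 3.84 ± 2.94 for Lhx1 (SD, n = 3). Of the 5 tested, 2 were higher and 2 lower in every KO library, where 15.2% and 20.5% of all genes were. For Lhx1, WT replicate 3 at 7.26 FPKM was nearly level with the library labelled KO replicate 3 at 7.24. For Lbx1, Lhx5 and Lhx1 the limma adjusted p was 0.0966, 0.0959 and 0.118, and 0.0326, 0.0107 and 0.00149 without that library. Pax2 and these 3 were at 0 in the library labelled 4-month KO.

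Across all 8 libraries, the genes most like Slc6a5 among 10316 of at least 5 FPKM on average were Hapln2, Capn2, Lingo4, Lgi3, Mab21l2 and Itih3, with Pearson r of log2(FPKM + 1) from 0.987 to 0.994. Glra1 was the eighth at 0.99 and Slc6a9 the 30th at 0.97, while Gad1 had an r of -0.32. These points share 2 genotypes, 2 ages and the library labelled 4-month KO. Without that library the first 6 were Ahnak2, Sv2c, Hapln2, Slc19a2, Dkk3 and Ankrd42, so 1 gene, Hapln2, was in both lists. Glra1 was then at 0.95, Slc6a9 at 0.86 and Gad1 at -0.98. The genes most like Gad1 over 8 libraries were Dnmt1, Ramp3, Sept8, Baz1b, D2Wsu81e and Mier3, with r from 0.971 to 0.99. Dnmt1 and Sept8 stayed among the first 6 over 7 libraries.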

How the data were processed

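RNA of 8 libraries was analysed, while 29 chromatin samples of the 37 in the series were left out. Build mm9 was used with Bowtie 1.1.2, TopHat2 2.1.0 and Cuffdiff, per the submitters' processing notes. The authors deposited FPKM values, 1 column per library. With annotation, strand setting and further scaling not given in the sources used here, overlapping genes cannot be told apart. One repeated header line was removed. A few genes of the lists are counted but not reported here by name.

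From these values, log2(FPKM + 1) was tested with limma 3.58.1 in R 4.3.3, where a gene averaged 1 FPKM or more in the fitted libraries. Genotype was the only term at 1 month, age and genotype were additive over 8 libraries, and an interaction was fitted. P-values were Benjamini-Hochberg adjusted over all genes, with a threshold of 0.05. The scale understates changes of low genes. Small RNA symbols held 11.0% to 48.2% of a library's total FPKM, which touches the scaling. The alternatives were other pseudocounts, filters, scalings, weights and left-out libraries.

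The members and lists were chosen with earlier results of these data known. All members are named, then from each other list up to 4 genes with the smallest p at 1 month and defining markers at 0, and the 6 genes most like Slc6a5 and Gad1. In the RefSeq table Mll2 is a former symbol of Kmt2d and also of Kmt2b. Promoters come from RefSeq, build GRCm38.p6, whose coordinates do not apply to mm9.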

Additional observations from a re-analysis of the deposited data

Results flagged for a closer look

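For 4 members the KO minus WT difference at 4 months lay past the threshold when set against that at 1 month in limma. With 1 library per genotype at 4 months, all of the spread in that test comes from the 1-month libraries, so its p-values do not show a difference between ages. The 4-month minus 1-month values in log2(FPKM + 1) were -6.94 for Slc6a5, -6.03 for Glra1, -2.85 for Slc6a9 and -2.05 for Slc32a1. Each rests on the library labelled 4-month KO, in which 8 of 8 Hox genes were at 0 and Tbr1 was at 31.2 FPKM. The part of tissue, age and genotype in these values cannot be told apart.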

How the results depend on the processing

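Of 301 alternative values for single members, 271 kept their direction and side of the threshold, 16 came to pass it, 1 no longer passed and 13 changed sign. These values pool the fits of genotype, of age and of their interaction. Members passed only in the reported interaction fit, so for most values keeping the side meant still not passing. Size was not counted, so Slc6a5 at 0.11 in place of 1.85 counts as kept. The number of genes passing at 1 month was 4, and 12 and 10 with a pseudocount of 0.1 and 0.5, 1 without a filter, 13 with a filter at 5 FPKM, 9 with a mean-variance trend, 8 after quantile normalization, 42 with libraries shifted to 1 median and 8095 with array weights. It was 1 to 5037 when 1 library was left out, the highest without the library labelled KO replicate 3. Without WT replicate 3 it was 18. Members passing, 0 in the reported fit, were 6 with array weights and 0 to 6 with 1 library left out. Deviations of same-numbered 1-month libraries from their group means had correlations of 0.17, 0.03 and 0.04. Small RNA symbols held 31.9%, 44.7% and 36.2% of total FPKM in WT replicates 1 to 3 and 24.4%, 43.5% and 36.8% in KO. Estimated relative depth was 0.73 and 0.77 in replicate 3 of WT and KO, against 0.97 to 1.2 in the other 1-month libraries. Whether same-numbered libraries were processed together was not tested. With the replicate block, 0 genes passed with limma, with 4892 at an unadjusted p under 0.05. A fit of all 8 libraries with age added passed 0 genes, with 3937 unadjusted, and Slc6a9 and Slc32a1 turned to -0.08 and -0.23, while Slc6a5 and Glra1 came to 0.11 and 0.44 (limma adjusted p = 0.958 and 0.799). Without the library labelled 4-month KO, an alternative chosen after seeing the data, that fit gave 1.85 and 1.95 (limma adjusted p = 0.0661 for both).

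Age called 295 genes, and 163 with a pseudocount of 0.1, 447 without a filter, 671 with a filter at 5 FPKM, 483 with a trend and 137 rescaled without small RNAs. Leaving out 1 library of 1 month gave 2 to 550, leaving out 4-month WT 2278 and 4 members, and leaving out the library labelled 4-month KO 1531. Of the 295, 112 were higher and 183 lower, against 143 and 79 after quantile normalization, 157 and 57 with libraries shifted to 1 median and 87 and 50 rescaled. Without the library labelled 4-month KO the age difference turned to 1.11 for Slc6a5, 0.55 for Slc6a9, 0.75 for Slc32a1 and 0.29 for Glra1, and without 4-month WT that of Gad1 turned to 0.14. The difference between ages in the KO effect called 1723 genes, and 492 to 3448 with 1 library left out, with 3 to 4 members. Slc32a1 missed the threshold without WT replicate 1 (limma adjusted p = 0.0509). That value for Gad2, 0.01, turned to -0.11 after quantile normalization, to -0.01 with either other scaling, and ran from -0.10 to 0.11 with 1 library left out. At 4 months Slc6a5 was at -7.65 and -5.97 and Glra1 at -5.45 and -4.67 with a pseudocount of 0.1 and 0.5. The cause of these shifts was not tested. Depth cannot be read from FPKM, so low values such as those of Slc6a5 in the library labelled 4-month KO have no counting error.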

Other observations

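Slc17a6, the vesicular glutamate transporter of many brainstem and deep cerebellar neurons, is no inhibitory gene and was at 29.2, 28.2 and 23.4 FPKM in WT and 64.4, 63.2 and 29.9 in KO at 1 month. The groups did not overlap, with a difference of 0.86 (SE 0.30, limma adjusted p = 0.116). Slc17a6 rose without the library labelled KO replicate 3 (limma adjusted p = 0.00254). All 10 microglia markers were higher in every KO library at 1 month, where 15.2% of all genes were, with sums of 56.1 to 73.5 FPKM in WT and 148 to 189 in KO, and here the library labelled KO replicate 3 was the highest.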
